A study of Mus musculus with 14 samples.

Results

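The segment described here is the stretch chr9:99600001-99900000 (GRCm38), which lies on the side with lower coordinates of the Stag1 locus and holds the protein-coding genes A4gnt, Dzip1l, Cldn18 and Sox14. Its contacts were measured by UMI-4C, in which chromatin is crosslinked, cut and ligated, and fragments joined to a chosen site, the bait, are sequenced and counted as unique molecular identifiers (UMIs). The members were all fragment ends in the segment that were paired with the bait end, which is the end listed most often in each library. They were 1227 of the 57584 ends seen on chromosome 9 outside 10 kb of a bait, and they carried 6173 of 185425 UMIs. The segment share is what percentage fell in the segment, of all chromosome 9 UMIs farther than 10 kb from the bait.

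Embryonic stem cells (ESC) were the 2i-LIF grown, naive cells of mouse, and neural stem cells (NSC) were ES-derived and EGF-FGF grown. Both are listed as untreated, and the labels name no strain, clone or animal, while the study's methods give male E14 as its mESC line. The baits are called Nanog bait 1, Nanog bait 2 and CTCF bait, and the first pair lies within Stag1, which encodes a subunit of cohesin. From bait 1 there were 4 ESC and 3 NSC libraries, from bait 2 there were 3 ESC libraries and 1 NSC library, and from the CTCF bait 2 ESC libraries and 1 NSC library. Contact counts carry no expression, so the identity of the cells was not checked against markers. Libraries held 7172 to 51412 UMIs, and 4710 to 38704 UMIs of chromosome 9 outside 10 kb of the bait. At that depth 3 UMIs make a share of 0.00775% to 0.0637%. In 3 pairs of bait 1 libraries (ESC 1 and 4, ESC 2 and 3, NSC 1 and 3) between 82.6% and 85.7% of the ends on other chromosomes were shared, so each pair was averaged and counted as 1 sample, which left 11 samples. A further 9 pairs shared 1.92% to 12.9%, and the other 79 pairs shared at most 0.641%. Each NSC sample was treated as linked to the ESC sample of its bait with which it shared most. CTCF bait ESC replicate 2 shared 1.92% with the NSC library and 2.44% with ESC replicate 1, and it was not in the linked comparisons. The labels name no batch, and the links rest on shared ends alone. The labels do not say that samples came from separate cultures, so p-values measure only the spread between these samples. They also do not say whether libraries of different baits share a chromatin preparation. Tests over baits treat such libraries as separate samples.

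Contacts along a chromosome become rarer with distance, and cohesin brings distant sites together by extruding loops that often stop at sites bound by CTCF. Such contacts are enriched within topologically associating domains, and domains of like activity also meet over longer distances. The genes of the segment have unlike roles. A4gnt encodes a glycosyltransferase that caps mucin sugars of the gastric glands, and Dzip1l a protein of the transition zone of cilia. Cldn18 encodes a claudin of tight junctions in stomach and lung epithelium, and Sox14 a SoxB transcription factor of neural progenitors and interneurons. By the annotation (GENCODE M21) A4gnt (ENSMUSG00000037953.7) spans 99612502 to 99622367 and Dzip1l (ENSMUSG00000037784.14) 99629496 to 99669256, both on the plus strand. Cldn18 (ENSMUSG00000032473.13) spans 99689461 to 99717267 and Sox14 (ENSMUSG00000053747.9) 99874106 to 99876170, both on the minus strand. The segment also holds the antisense gene Gm16004, the snoRNA gene Gm23949 and the lincRNA gene Gm47757.

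The ends that define the measurement are shown first, because every count below is a ligation between a bait end and an end in the segment. All listed ends lay 1 or 2 bases from the first base of a GATC site. Each sequence holds 60 bases of the GRCm38 genome from RefSeq, read from the site into the fragment that the end was taken to belong to, with the GATC site in capitals. The bait ends are at chr9:100619987-100620046 (plus strand), chr9:100641641-100641700 (minus strand) and chr9:100455320-100455379 (minus strand):
Nanog bait 1: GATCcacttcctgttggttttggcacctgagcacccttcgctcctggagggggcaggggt
Nanog bait 2: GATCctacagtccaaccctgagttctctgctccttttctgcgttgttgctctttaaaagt
CTCF bait: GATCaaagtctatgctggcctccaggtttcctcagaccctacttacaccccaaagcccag
The segment begins 720.0 kb from bait 1, 742 kb from bait 2 and 555 kb from the CTCF bait, and ends 1020.0 kb, 1042 kb and 855 kb from them.

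The 5 ends with the most UMIs summed over the samples are shown as the points captured most often in that sum, in which CTCF bait ESC replicate 1 weighs most, with 1724 of the 6173 UMIs of the segment:
end 1: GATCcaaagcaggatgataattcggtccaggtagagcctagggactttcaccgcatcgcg
end 2: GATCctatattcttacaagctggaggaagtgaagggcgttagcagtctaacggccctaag
end 3: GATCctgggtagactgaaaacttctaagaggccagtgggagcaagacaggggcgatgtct
end 4: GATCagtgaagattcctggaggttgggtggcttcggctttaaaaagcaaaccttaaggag
end 5: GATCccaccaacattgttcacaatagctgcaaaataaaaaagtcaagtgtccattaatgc
Ends 1 and 4 are both sides of 1 GATC site that lies 5190 bp from the Sox14 start (chr9:99870923-99870982, minus strand, and chr9:99870979-99871038, plus strand). End 3 (chr9:99701545-99701604, minus strand) lies within Cldn18, and ends 2 (chr9:99803135-99803194, minus strand) and 5 (chr9:99778105-99778164, minus strand) lie in none of the genes. Over the 14 libraries they held 17, 15, 13, 16 and 15 UMIs, in the order printed, and were seen in 8, 11, 6, 11 and 6 libraries. End 1 held 6 UMIs in CTCF bait ESC replicate 1 and 0 in the NSC library of that bait, whereas from bait 1 it held 2, 3 and 2 UMIs in NSC and 1, 0, 0 and 0 in ESC. These counts are too low to compare single ends between cell types, and no end in the segment held more than 6 UMIs in any library.

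The segment offered 735 GATC sites and therefore 1470 possible ends, of which 83.5% were seen at least once. Of these, 395 ends were seen from all 3 baits, 538 from 2 baits and 294 from 1 bait. Of all these ends, 7 were seen in at least 8 of the 11 samples. Whether an end was seen moved with the length of its fragment. The median fragment was 334 bp for ends that were seen and 61 bp for those that were not. Ends were seen in 43.8% of cases on fragments under 51 bp and in 95.1% on fragments over 800 bp. Fragment lengths were taken from the GRCm38 genome for both cell types, and cutting was not measured in either.

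The main comparison asked whether the segment took a different part of the contacts of each bait in ESC and NSC. As a share of chromosome 9 contacts, the segment was higher in NSC samples than in ESC samples from every bait. As a share of all contacts, other chromosomes included, this held for bait 2 and the CTCF bait, and samples of bait 1 overlapped. From bait 1 the libraries of ESC replicates 1 to 4 gave 2.51%, 2.26%, 2.17% and 2.47%, and those of NSC replicates 1 to 3 gave 3.10%, 3.08% and 3.26%. The lowest NSC library lay above the highest ESC library. Averaged over repeat libraries, ESC had 2.35% ± 0.196 (SD, n = 2) and NSC 3.13% ± 0.0730 (SD, n = 2). From bait 2 the ESC libraries gave 2.15%, 1.57% and 1.68%, a mean of 1.80% ± 0.306 (SD, n = 3), and the NSC library gave 3.11% (95% Wilson interval 2.81% to 3.44%). From the CTCF bait the ESC libraries gave 4.45% and 3.82%, a mean of 4.14% ± 0.449 (SD, n = 2), and the NSC library gave 6.23% (5.85% to 6.62%). The intervals cover counting error only.

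**Figure D1:**
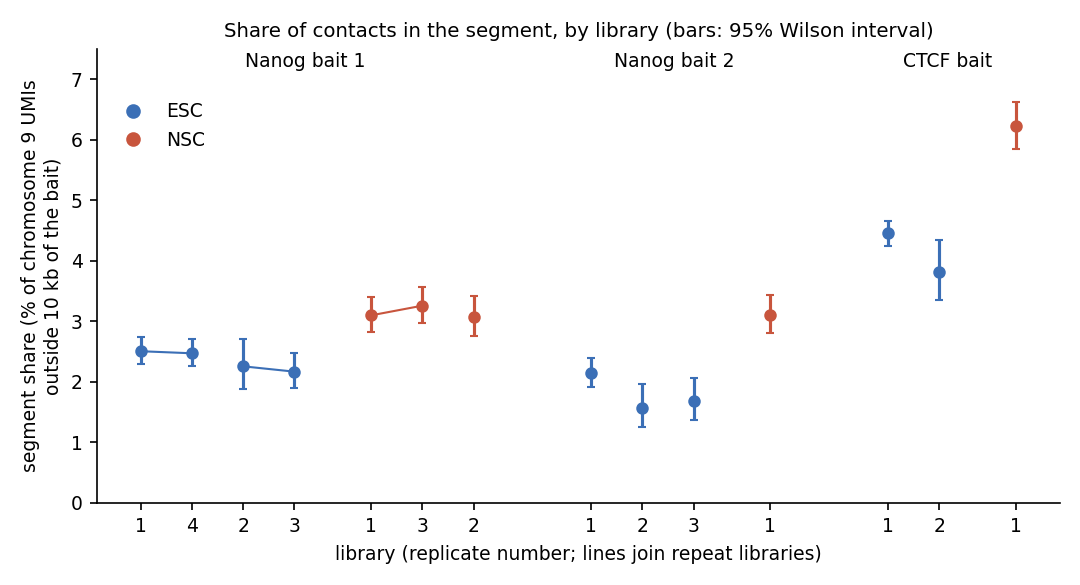
Segment share of every library, in percent of chromosome 9 UMIs outside 10 kb of the bait (vertical axis), by bait, cell type and replicate number (horizontal axis). Bars are 95% Wilson intervals and lines join repeat libraries; NSC libraries lie at 3.08% to 3.26% from bait 1, above all ESC libraries of that bait, and at 3.11% and 6.23% from the other baits, again above their ESC libraries.

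The difference of NSC minus ESC was 0.777 percentage points from bait 1, 1.31 from bait 2 and 2.09 from the CTCF bait. Within 1 bait no design reaches the threshold, and the two-sided exact permutation p was 0.333, 0.25 and 0.333, each the smallest possible. With cell types permuted within baits, the mean difference of 1.39 percentage points gave an exact permutation p of 0.0139, the smallest of 72 arrangements. This count of arrangements takes libraries of different baits as separate samples, which the labels do not settle. The difference from the CTCF bait exceeded the mean of the other baits by 1.05 percentage points (two-sided exact permutation p = 0.708). Cell types were permuted within baits, so the null is no difference from any bait. This p does not test whether the difference is equal between baits. With all UMIs outside 10 kb of the bait as denominator, other chromosomes included, the mean difference was 0.650 percentage points (exact permutation p = 0.0278). From bait 1 it was then 0.0825 (exact permutation p = 0.667), and the ESC samples (1.74% and 1.81%) overlapped the NSC samples (1.95% and 1.77%). From bait 2 the ESC samples had 1.44%, 1.18% and 1.37% and the NSC library 1.96%, and from the CTCF bait 3.504% and 3.36% against 4.67%. Chromosome 9 took a smaller part of these UMIs in NSC, with 57.4% to 62.4% against 69.8% to 82.1% in the ESC libraries of bait 1, 63.0% against 66.9% to 81.7% for bait 2 and 75.1% against 78.7% and 88.0% for the CTCF bait. The part of this in the share of chromosome 9 was not tested beyond that denominator. With the share of chromosome 9, within linked libraries NSC was higher by 0.691 and 0.864 percentage points from bait 1, by 0.962 from bait 2 and by 1.77 from the CTCF bait. Averaged first within bait 1 and then over baits, these gave 1.17 (exact permutation p = 0.125), and the linked libraries allow no smaller p. Among ESC samples the deepest had the highest share from each bait, and it was deeper (28164, 21866 and 51412 UMIs) than any NSC library of its bait (at most 24687, 19762 and 21874 UMIs). Drawing 7000 UMIs from every library and counting each end once, a setting chosen after seeing the data, gave a mean difference of 0.980 (exact permutation p = 0.0139). At the depth of each library, counting each end once gave 0.891 (exact permutation p = 0.0139), and 0.235 from bait 1. A share averages over the cells of a library, so a change in all cells and a change in some of them cannot be told apart.

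The share of the segment was read against the rest of the profile, since shares of 1 chromosome must sum to a whole. Contacts between 10 kb and 100 kb from the bait were fewer in NSC than in ESC, with 16.2% ± 1.34 against 28.7% ± 6.97 from bait 1, 16.9% against 31.4% ± 6.49 from bait 2 and 14.2% against 18.0% ± 3.80 from the CTCF bait. Contacts beyond 1.1 Mb were more, with 55.4% ± 2.47 against 37.3% ± 9.97, 47.8% against 35.2% ± 7.43 and 40.9% against 29.7% ± 6.74 (SD, n as above). The part of these shifts in the segment share was not tested apart from the scalings below. In the profile by distance, contacts of NSC had a local maximum inside the segment from each bait, and those of ESC had one from bait 1 (0.835% at 900 to 1000 kb) and from the CTCF bait (1.51% at 600 to 700 kb). ESC contacts of bait 2 had no clear maximum wholly inside the segment, with 0.584% at 800 to 900 kb and 0.581% at 900 to 1000 kb. They had 0.731% at 1000 to 1100 kb, 0.535% at 1100 to 1200 kb and 0.843% at 1200 to 1300 kb. The bin at 1000 to 1100 kb was thus above those beside it, and the segment ends within it, 1042 kb from bait 2. From bait 1 the bin at 800 to 900 kb on the side of the segment held 1.19% in NSC and 0.726% in ESC, and from bait 2 it held 1.19% and 0.584%. From the CTCF bait the bin at 600 to 700 kb held 2.57% in NSC and 1.51% in ESC. At 400 to 500 kb from the CTCF bait on that side, outside the segment, NSC held 1.41% and ESC 1.48%.

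**Figure D2:**
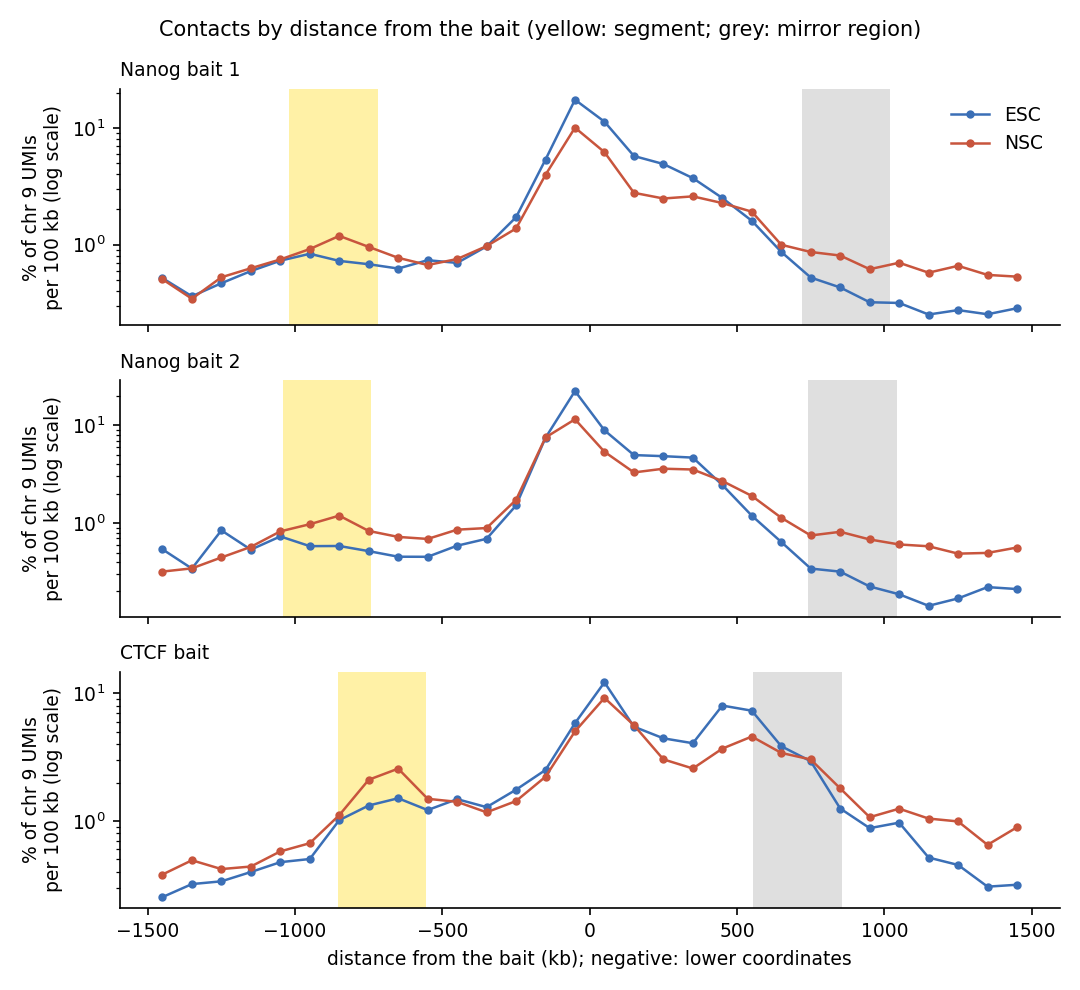
Percent of chromosome 9 UMIs outside 10 kb of the bait per 100 kb (vertical axis, log scale) against distance from the bait in kb (negative towards the segment), as group means of samples for ESC and NSC. Yellow marks the segment and grey the region at the same distance on the other side; contacts of both cell types have a local maximum within the segment from bait 1 and the CTCF bait (from bait 1, 1.19% at 800 to 900 kb in NSC and 0.835% at 900 to 1000 kb in ESC; at 600 to 700 kb from the CTCF bait, 2.57% and 1.51%).

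Regions of the same length served for comparison, so that the result did not rest on the denominator alone. The first was the mirror region, at the same distance on the other side of each bait. From baits 1 and 2 the segment held more UMIs than its mirror region in every sample, and the log2 ratio was smaller in NSC. From bait 1 it was 0.77 and 1.11 in the ESC samples and 0.49 and 0.42 in the NSC samples. From bait 2 it was 0.99, 1.24 and 1.38 in ESC and 0.48 in NSC. From the CTCF bait the segment held fewer UMIs than its mirror region, with log2 ratios of −1.07 and −1.42 in ESC and −0.59 in NSC, so the ratio was larger in NSC. The differences of NSC minus ESC were −0.49, −0.72 and 0.65 (exact permutation p = 0.333, 0.25 and 0.333, the smallest each allows), and their mean was −0.19 (exact permutation p = 0.486). The difference from the CTCF bait exceeded the mean of the other baits by 1.26 on the log2 scale (two-sided exact permutation p = 0.0139, the smallest of 72 arrangements). The null here too is no difference from any bait, so this p does not test whether baits differ. The mirror regions are different places for each bait. Against all contacts at 500 kb to 1.1 Mb on the other side, the differences were −0.13 from bait 1, −0.23 from bait 2 and 0.77 from the CTCF bait, so those of the Nanog baits were much smaller. Relative to the mirror region the segment was higher in NSC from the CTCF bait and lower from both Nanog baits, while its share of chromosome 9 was higher in NSC from all 3.

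The other regions were the neighbouring bins of 300 kb, a comparison chosen after seeing the data. Against the neighbour nearer the baits, the log2 ratio of the segment was 0.31 and 0.20 in ESC and 0.67 and 0.44 in NSC from bait 1, and 0.43, 0.48 and 0.34 in ESC and 0.56 in NSC from bait 2. From the CTCF bait it was 0.05 and 0.04 in ESC and 0.71 in NSC. NSC lay above all ESC samples from each bait, and the mean difference was 0.37 (exact permutation p = 0.0139, the smallest possible). Against the neighbour farther from the baits the mean difference was 0.53 (exact permutation p = 0.0278), 0.48 without ESC replicate 3 of bait 1 (exact permutation p = 0.0694), 0.45 without ESC replicates 1 and 4 of bait 1 and 0.51 without NSC replicates 1 and 3 (exact permutation p = 0.0556 for each). It was 0.27 from bait 1, where ESC (0.32 and 0.79) and NSC (0.87 and 0.77) overlapped, 1.00 from bait 2 and 0.32 from the CTCF bait. The value from bait 1 was 0.13 without ESC replicate 3, 0.40 without ESC replicate 2, 0.030 without ESC replicates 1 and 4 and 0.50 without ESC replicates 2 and 3. The value from the CTCF bait was 0.078 without its ESC replicate 1 and 0.56 without its ESC replicate 2. Within linked libraries the difference from bait 1 was 0.55 between NSC replicates 1 and 3 and ESC replicates 1 and 4. It was −0.02 between NSC replicate 2 and ESC replicates 2 and 3.

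**Figure D3:**
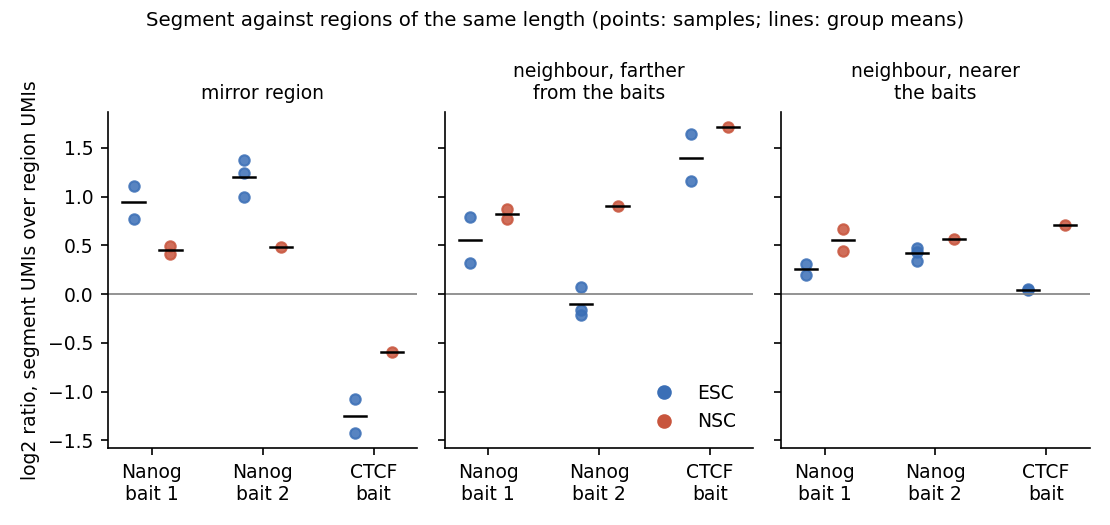
Log2 ratio of the UMIs of the segment to those of 3 regions of the same length (vertical axis), for each sample (points) and group mean (lines), by bait. The mirror ratio is lower in NSC than in ESC from the Nanog baits and higher from the CTCF bait; the ratio to the neighbour nearer the baits is higher in NSC from every bait.

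The next comparison located the difference within the segment, in windows of 20 kb tested together with all windows of chromosome 9 (1794 windows with at least 10 UMIs, edgeR). All 15 windows of the segment passed that filter, with 245 to 534 UMIs each over the 14 libraries. For the mean over baits, 6 of the 15 windows passed an adjusted p of 0.05, all with NSC higher, where 1.95% of all windows did. The log2 fold change was positive in 14 of the 15 windows and in 51.3% of all windows, and its median was 0.49 in the segment and 0.03 over all windows. At 500 kb to 1.1 Mb on the other side of the bait, the median was 0.70 around baits 1 and 2 and 0.43 around the CTCF bait. Of 30 windows there, the mean over baits was called with NSC higher in 9 around bait 1, 9 around bait 2 and 2 around the CTCF bait. On the side of the segment, 0 of the 15 other windows were called so at each bait. From bait 1 alone 0 windows of the segment passed with NSC higher, where 0.0557% of all windows did, and 4 of the 15 had an unadjusted p under 0.05, against 7.25% of all. From bait 2 alone 0 passed, against 0.0% of all, and 6 had an unadjusted p under 0.05, against 5.24%. From the CTCF bait 1 passed, against 0.167%, and 6 had an unadjusted p under 0.05, against 4.91%. NSC samples lay above every ESC sample from each of the 3 baits in 5 of the 15 windows, against 5.74% of all windows. These percentages of all windows include windows with as few as 10 UMIs, where a change is harder to call. In simulated data 12% of all changed windows were called, and 66.7% of those with at least 50 UMIs.

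The 6 windows called lay between the window with the Cldn18 start and the last window before that of Sox14, and the windows at 99720001 and 99780001 in that stretch were not called. They were the window with the starts of Cldn18 and Gm16004 (99700001 to 99720000, log2 fold change 0.72 ± 0.21 SE, edgeR adjusted p = 0.021) and 5 windows nearer the baits. In the window at 99700001 the log2 fold change was 0.12 from bait 1, 1.33 from bait 2 and 0.71 from the CTCF bait. Its bait 1 samples overlapped (0.234% and 0.203% in ESC, 0.233% and 0.260% in NSC). The largest change was at 99740001 to 99760000, over the end of Gm16004 and the snoRNA gene Gm23949 (1.09 ± 0.22, adjusted p = 0.000216). There bait 1 samples gave 0.112% and 0.158% in ESC and 0.174% and 0.301% in NSC. Bait 2 gave 0.108%, 0.0637% and 0.0378% in ESC and 0.26% in NSC, and the CTCF bait 0.305% and 0.275% in ESC and 0.533% in NSC. No NSC sample overlapped an ESC sample of the same bait.

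The window at 99840001 to 99860000, which holds the lincRNA gene Gm47757, had the highest mean share over the 6 groups of bait and cell type, a mean in which the CTCF bait weighs most. It ranked first of the 15 windows in NSC from the CTCF bait, 12 in ESC from bait 1, 2 in NSC from bait 1, 6 in NSC from bait 2, 5 in ESC from bait 2 and 6 in ESC from the CTCF bait. It was also the 1 window called from the CTCF bait alone (log2 fold change 1.23, edgeR adjusted p = 0.0224), with 0.395% and 0.189% in ESC and 0.802% in NSC. From bait 1 it held 0.0913% and 0.152% in ESC and 0.294% and 0.299% in NSC, and from bait 2 0.18%, 0.149% and 0.0944% in ESC and 0.227% in NSC. The mean over baits was 0.97 ± 0.21 (adjusted p = 0.000779). The call from the CTCF bait alone was lost without ESC replicate 2 of that bait, without NSC replicate 2 of bait 1 and without NSC replicates 1 and 3 of bait 1, and thus without either NSC sample of bait 1. The remaining windows called were those beginning at 99760001 (0.82), 99800001 (0.73) and 99820001 (0.95), all with no annotated gene. The window at 99700001 was not called without NSC replicate 2 of bait 1 (adjusted p = 0.0852) or ESC replicate 2 of bait 2 (adjusted p = 0.063), or without both ESC replicates 2 and 3 of bait 1 (adjusted p = 0.0514). The window at 99800001 was not called without ESC replicate 3 or NSC replicate 2 of bait 1, ESC replicate 1 of bait 2 or ESC replicate 1 of the CTCF bait (adjusted p = 0.0677 to 0.116), or without both libraries of any repeat pair (adjusted p = 0.0557 to 0.102). The window at 99720001 was not called (0.51 ± 0.21 SE, adjusted p = 0.306). The window at 99780001 was not called (0.49, adjusted p = 0.381); it was high in NSC from bait 1 (log2 fold change 1.14) and not from bait 2 (−0.22).

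**Figure D4:**
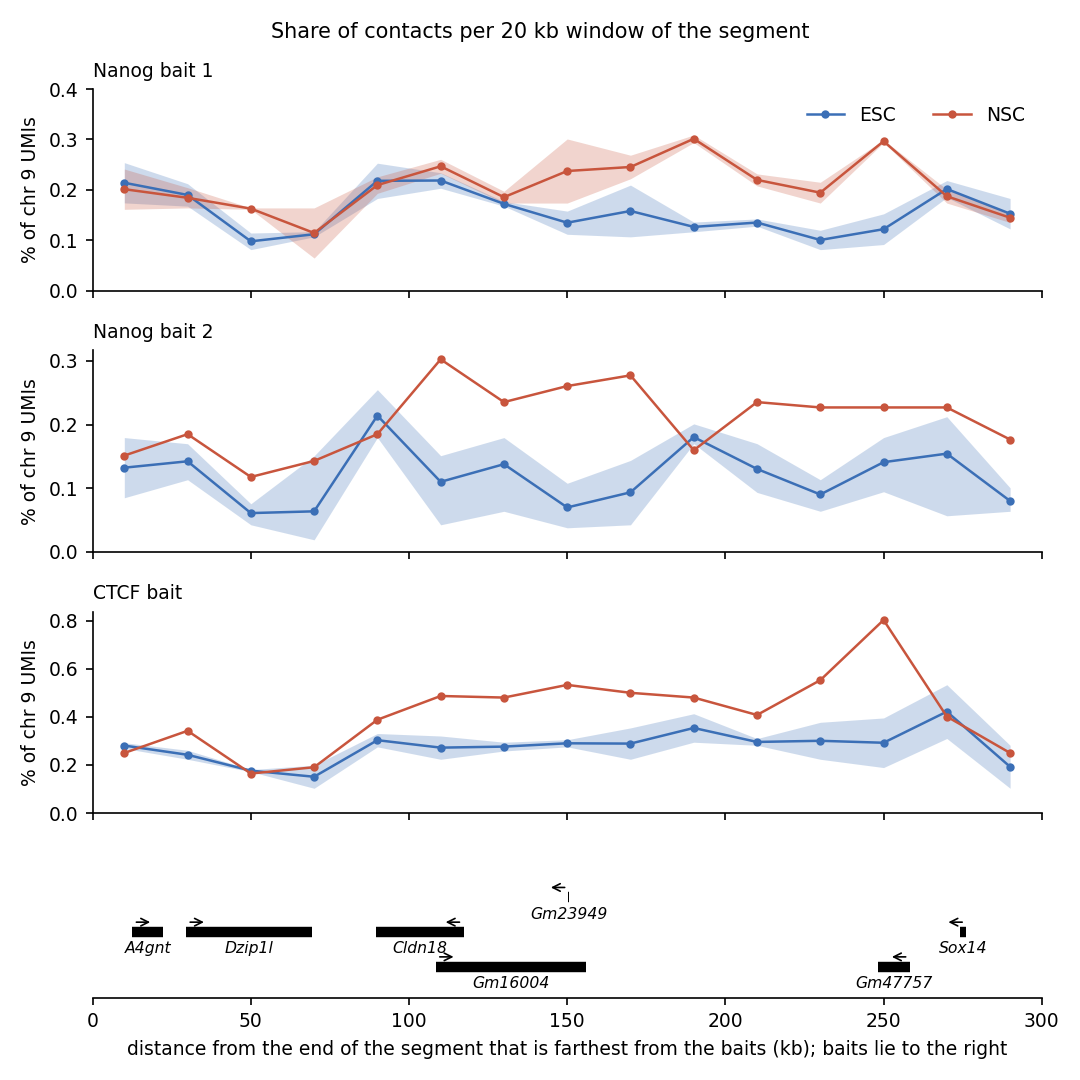
Percent of chromosome 9 UMIs outside 10 kb of the bait per 20 kb window (vertical axes), against distance in kb from the end of the segment farthest from the baits, for each bait. Lines are group means, bands run from the lowest to the highest sample, and the lower panel maps the genes with arrows at their starts. From bait 1 and the CTCF bait NSC lies above ESC mainly between Cldn18 and Sox14, up to 0.802% from the CTCF bait at Gm47757. Outside that stretch it also does so from bait 2 (log2 fold change 1.01 in the last window and 0.90 at 99640001). So it does from bait 1 at 99640001 (0.62) and from the CTCF bait at 99620001 (0.44).

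The windows at the edges of the segment did not pass the test. The window with the A4gnt start had a log2 fold change of −0.04 ± 0.23 (edgeR adjusted p = 1.0) and that with the Dzip1l start 0.24 ± 0.22 (adjusted p = 0.774). The window with Sox14 had 0.18 ± 0.21 (adjusted p = 0.819). Its shares overlapped between cell types from bait 1 (0.218% and 0.185% in ESC, 0.174% and 0.201% in NSC) and from the CTCF bait (0.31% and 0.533% in ESC, 0.401% in NSC). From bait 2 the NSC library (0.227%) lay above the ESC samples (0.194%, 0.212% and 0.0566%). These values do not show that the windows were equal in both cell types.

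**Figure D5:**
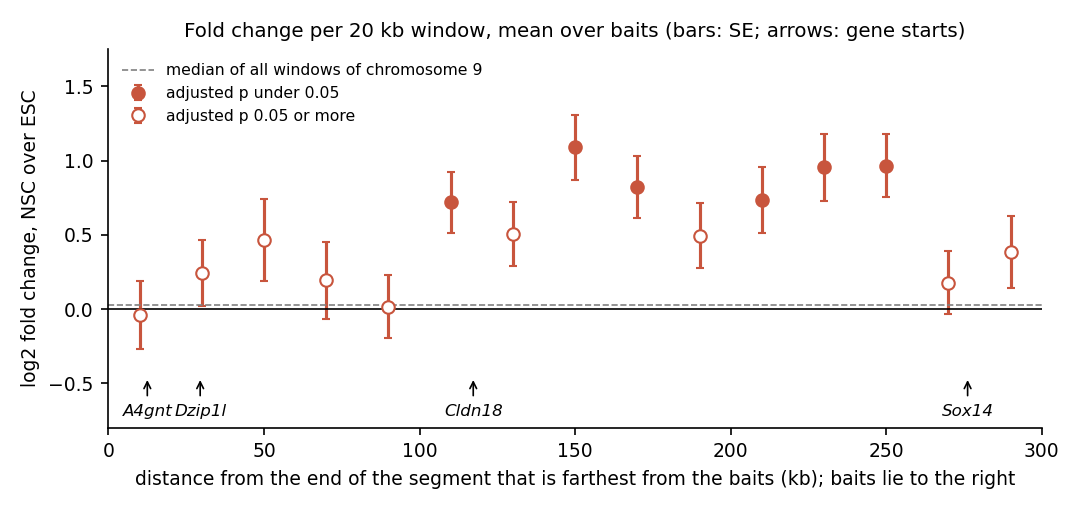
Log2 fold change of NSC over ESC per 20 kb window of the segment, as the mean over baits in edgeR (vertical axis; bars are SE), against distance in kb from the end farthest from the baits. Filled points passed an adjusted p of 0.05; the 6 of them lie between the Cldn18 start and Gm47757, where the windows at 99720001 and 99780001 are open, and the windows with the A4gnt, Dzip1l and Sox14 starts are open.

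These calls depended on the scaling. With TMM factors, with DESeq2 and with each end counted once, 0 of the 15 windows were called (6, 3 and 4 at an unadjusted p under 0.05, against 5.8%, 2.4% and 6.39% of all windows), while 8 were called with the UMIs from 10 kb to 1 Mb as library size, where 3.51% of all windows were called with NSC higher, and 4 with the linked libraries as a block, where 1.45% were. Over all windows, calls with NSC higher and with ESC higher were 35 and 22 as tested here, 2 and 17 with TMM factors, 0 and 24 with DESeq2, 63 and 14 with the UMIs from 10 kb to 1 Mb, 26 and 0 with the block, and 3 and 0 with each end counted once, which also moved the median log2 fold change from 0.03 to −0.22. The part of the segment nearer the baits, which is its last 150 kb, took 45.5% to 45.8% of the segment's UMIs in the ESC samples of bait 1 and 53.6% to 55.4% in NSC, a measure with no library size that was chosen after seeing the data. Over baits the mean difference was 5.16 percentage points (exact permutation p = 0.0417). The p rose to between 0.0556 and 0.0741 without NSC replicate 2 of bait 1, ESC replicate 1 or 3 of bait 2 or either ESC library of the CTCF bait, and to at most 0.0833 without both repeat libraries of a bait 1 sample. From bait 2 the ESC samples (47.2% to 55.4%) overlapped the NSC library (54.1%). Adjusted over the 5 measures compared by permutation in this way, the p was 0.0347 for the segment share and the nearer neighbour, 0.0463 for the far neighbour, 0.0521 for the last 150 kb and 0.486 for the mirror region, and for the difference between baits in the mirror ratio it was 0.0694.

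By gene, levels are given as percent of chromosome 9 UMIs per 100 kb, so that bodies of different length can be set side by side. The stretch from the Cldn18 start to the 3′ end of Sox14, 157 kb with 395 GATC sites, held 3490 UMIs over the libraries. It had 0.677 ± 0.116 in ESC and 1.18 ± 0.0896 in NSC from bait 1 (SD, n = 2 each), 0.598 ± 0.117 and 1.14 from bait 2, and 1.53 ± 0.105 and 2.61 from the CTCF bait. NSC was 1.74, 1.90 and 1.70 times ESC. Between the 3′ ends of Dzip1l and Cldn18 the ratio was 1.15, 2.02 and 1.41, and from the Sox14 start to the end of the segment 0.848, 2.04 and 1.05, in the same order of baits. From bait 2 these flanking stretches thus had ratios at least as high as the stretch between Cldn18 and Sox14. That order was not stable to leaving out 1 library. Without ESC replicate 2 of bait 2 the first flank had 1.61 against 1.76, and without ESC replicate 3 the second had 1.74 against 1.85. The Cldn18 body had 1.24 ± 0.0536 in ESC and 1.18 ± 0.0556 in NSC from bait 1, so its samples differed by little there, against 0.937 ± 0.119 and 1.36 from bait 2 and 1.46 ± 0.397 and 2.36 from the CTCF bait. The Dzip1l body had 0.718 and 0.752 from bait 1, 0.414 and 0.676 from bait 2, and 0.807 and 1.03 from the CTCF bait, in ESC and NSC. Per 100 kb it had the lowest level of the 4 protein-coding genes from the CTCF bait in both cell types. That level is not scaled by GATC sites. The windows at 99640001 and 99660001, over Dzip1l, hold 34 and 35 sites, and the window with the A4gnt start 66.

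The Gm47757 body had 0.578 ± 0.102 in ESC and 1.35 ± 0.136 in NSC from bait 1, 0.308 ± 0.270 and 0.586 from bait 2, and 1.27 ± 0.826 and 4.06 from the CTCF bait. The ratio of NSC to ESC was 2.33 from bait 1, 1.90 from bait 2 and 3.20 from the CTCF bait, on 236 UMIs in all. The bait 2 libraries held 7, 2 and 0 UMIs in ESC and 7 in NSC, and that ratio was 1.27 without ESC replicate 3. The ESC libraries of the CTCF bait had 1.85 on 72 UMIs and 0.686 on 4 UMIs, and the ratio was 2.19 with the first alone and 5.92 with the second alone. The Sox14 body is short (2.06 kb, 4 sites, 59 UMIs), and its samples spread too widely to order, so the 20 kb around its start was used. There the level was 0.845 ± 0.0611 in ESC and 0.890 ± 0.236 in NSC from bait 1, 0.822 ± 0.348 and 1.05 from bait 2, and 1.89 ± 0.245 and 1.81 from the CTCF bait. The differences lay within the spread between samples. Around the A4gnt start the NSC level was 1.03, 1.28 and 0.868 times that of ESC from the 3 baits, and around the Dzip1l start 0.957, 1.37 and 1.33 times.

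As 1 bin of 300 kb, tested with 402 bins of chromosome 9, the segment had a log2 fold change of 0.59 ± 0.14 for the mean over baits (edgeR adjusted p = 0.00259), and 5.72% of all bins passed with NSC higher. The median of all bins was 0.38, and the change relative to it is therefore much smaller; 33.3% of bins had a higher value. Per bait it was 0.41 from bait 1 (adjusted p = 0.339; 0.746% of all bins passed), 0.77 from bait 2 (adjusted p = 0.217; 0.746%) and 0.58 from the CTCF bait (adjusted p = 0.558; 0.498%). The neighbouring bins did not pass, with 0.01 ± 0.16 on the far side and 0.21 ± 0.15 on the side of the baits. With TMM factors, which moved the median of all bins to 0.05, the segment had 0.17 (adjusted p = 0.575), and with DESeq2 0.23 (adjusted p = 0.777). It also did not pass with each end counted once (0.33, adjusted p = 0.567) or when linked libraries were blocked (0.48, edgeR adjusted p = 0.247). At 500 kb to 1.1 Mb from bait 1, 0 of the 15 other windows of 20 kb on the side of the segment were called for the mean over baits, and 9 of 30 on the other side of the bait.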

How the data were processed

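UMI-4C libraries of ESC and NSC were processed by the authors, who deposited for each library a count of UMIs per pair of fragment ends, not normalised. The submitters' processing notes name Bowtie2 and mm10 (GRCm38); the rule for collapsing UMIs and the filters are not given in the sources used here. Groups and replicate numbers were taken from the sample titles. Members and lists were chosen with earlier results of these data known: the genes and 20 kb windows named are those in the segment, the windows with gene starts, the 3 highest and up to 5 called per comparison, and the 5 ends with most UMIs.

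Libraries sharing over 50% of the ends on other chromosomes were averaged (rounded for the count model). Each NSC sample was linked to the ESC sample of its bait with which it shared most, if that was over 1%. Shares and log2 ratios (0.5 added to both counts) were compared by two-sided exact permutation tests. Windows of 20 kb and bins of 300 kb were tested in 1 fit over all baits in R 4.3.3 with edgeR 4.0.16 and limma 3.58.1 (quasi-likelihood), taking the chromosome 9 UMIs outside 10 kb of the bait as library size, at least 10 UMIs per window and Benjamini-Hochberg adjustment over all windows. Groups of 1 library borrowed the spread of the others. Alternatives included DESeq2 1.42.0, TMM factors, other denominators, ends counted once and libraries left out. For the mean over baits the fit was tested on simulated data: of 200 among 1794 windows changed by 1 on the log2 scale it called 12% (66.7% of those with at least 50 UMIs, as all windows of the segment have), with 0 false calls, and of 100 among 402 bins it called 46% (55.8% with at least 50 UMIs), with 4 false calls. How false calls move with the scaling was not tested on simulated data. Intervals and floors cover counting error only.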

Additional observations from a re-analysis of the deposited data

Results flagged for a closer look

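The difference of NSC minus ESC in the log2 ratio of the segment to its mirror region was positive from the CTCF bait and negative from both Nanog baits. Whether baits differ was not tested, since the null of the permutation is no difference from any bait. From the CTCF bait it exceeded the mean of the Nanog baits by 1.26 on the log2 scale (two-sided exact permutation p = 0.0139, the smallest of 72 arrangements; 0.0694 after adjustment over 5 measures), with differences of 0.65, −0.49 and −0.72. Within linked libraries the differences were 0.48 from the CTCF bait, −0.28 and −0.70 from bait 1 and −0.51 from bait 2.

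Some UMIs of the segment were paired with an end other than the bait end and entered no comparison. There were 6 in ESC replicate 1, 13 in ESC replicate 4, 13 in NSC replicate 1 and 19 in NSC replicate 3 of bait 1, which are the libraries of 2 repeat pairs, and at most 3 in any other library. No group had 4 or more samples, so single samples were not tested against the rest of their group.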

How the results depend on the processing

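The mean segment share difference (1.39 percentage points) kept its direction and an exact permutation p of at most 0.0278 when denominators, the excluded distance, the counting of ends or the averaging of repeats were changed, but was 0.650 with all UMIs outside 10 kb as denominator (0.0825 from bait 1, exact permutation p = 0.667), 0.891 with ends counted once (0.235 from bait 1) and 3.79 with the UMIs from 10 kb to 1 Mb. Over chromosome 9 it ranged from 1.29 to 1.498 without single libraries. Within linked libraries, where no p under 0.125 is possible, it was 1.17, and bait 2 gave 0.962 for the share and −0.51 for the mirror log2 ratio. The neighbour ratios there were 0.55 (far side) and 0.36 (side of the baits), and the part nearer the baits 5.82 percentage points. With each library as a replicate, repeats included, bait 1 gave 0.795 (exact permutation p = 0.0286). The mean mirror ratio turned to 0.14 against all contacts at 500 kb to 1.1 Mb on the other side, with −0.13 from bait 1 and −0.23 from bait 2.

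With TMM factors, DESeq2 and ends counted once, 0 windows of the segment were called over baits and 0 from the CTCF bait, where 0 were also called with no filter beyond 1 UMI and with linked libraries as a block. From bait 1 alone 2 windows were called with the UMIs from 10 kb to 1 Mb as library size (0.167% of all windows with NSC higher) and 2 in a fit on that bait alone (1.15% of 521). With each library as a replicate 4 were called (4.29% of 2542), and with the replicate block 4 (1.06% of 2542); both fits count repeat libraries of 1 sample as separate replicates, so their n exceeds the number of samples. The 300 kb bin from bait 1 was −0.21 with TMM factors, −0.093 with DESeq2 and 0.41 with each library as a replicate (adjusted p = 0.0229), where bait 2 gave 0.76 (adjusted p = 0.0379). Over baits it did not pass with TMM factors (0.17), DESeq2 (0.23), ends counted once (0.33; adjusted p = 0.567) or a block for linked libraries (0.48; edgeR adjusted p = 0.247). The difference of the CTCF bait from the mean of the others in that bin turned to 0.23, 0.24, 0.0044 and 0.0071 under these settings. Windows that were not called also turned: the window at 99600001 to 0.28 with the UMIs from 10 kb to 1 Mb, that at 99620001 to −0.00084 with ends counted once, and that at 99860001 to −0.10 with DESeq2 and −0.18 with ends counted once. The causes were not tested.

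Without single libraries, 4 to 6 windows were called over baits (of all windows 1.25%, without NSC replicate 2 of bait 1, to 2.99%, without ESC replicate 1 of bait 2), 0 to 1 from each bait alone (1 without ESC replicate 1 of bait 1 or of bait 2, for bait 1, and 1 without ESC replicate 1 of bait 2, for bait 2), and the bin ranged from 0.55 to 0.64 over baits and from 0.68 to 0.93 from bait 2. The difference of the CTCF bait ranged from −0.11 to 0.12, the far neighbour ratio from 0.45 to 0.61, the part nearer the baits from 4.54 to 5.91, and the windows at 99600001 and 99860001 from −0.14 to 0.10 and from −0.00056 to 0.30. Without both repeat libraries of a bait 1 sample, a setting added after seeing the data, the far neighbour ratio was 0.45 (ESC 1) and 0.51 (NSC 1; exact permutation p = 0.0556 for both), the part nearer the baits 5.10 (ESC 2), 5.22 (ESC 1) and 4.86 (NSC 1), the difference of the CTCF bait 0.034 (ESC 2) and 0.0032 (NSC 1), and the window at 99600001 0.020 (ESC 2) and 0.062 (NSC 1).

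Equal replicate numbers did not pair the bait 1 samples (correlations of their deviations 0.02, 0.01 and −0.04 over 1265 windows). The block was fitted on single libraries, repeats not averaged, so it changes 2 choices at once. With the replicate block the paired segment share difference from bait 1 was 0.835, the 300 kb bin over baits 0.49 (adjusted p = 0.0163), and 6 windows were called over baits (1.65% of all with NSC higher).

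With 1 NSC library from bait 2 and from the CTCF bait, the spread of NSC there is not known. Single ends held at most 6 UMIs, so single ends were not compared between cell types.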
